A study of Mus musculus with 6 samples.

Results

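The 10 genes described here are chemokines and the CXCR4 axis, which is Cxcl12 with its receptors Cxcr4 and Ackr3. The other ligands are Cxcl14, Cxcl1, Cxcl10, Cxcl16, Ccl2, Ccl7 and Cx3cl1. The genes were taken by symbol from a table of 24421 symbols, in which all 10 were present. RNA was sequenced from wild-type mouse cochlear explants, pieces of inner ear kept in culture, in 3 control and 3 neomycin-treated samples. The cochleae came from mice at postnatal day 2 and were cultured after removal of the tectorial membrane, the modiolus and the early stria vascularis. Neomycin, an aminoglycoside antibiotic that kills hair cells (HCs), was given at 1 mM over 6 h once the explants had been in culture for 12 h. A further 5 days of culture followed, with the thymidine analog EdU at 10 μM. The sample labels give this same protocol text for all 6 samples and set the groups apart by the treatment label alone, so control is read from that label as untreated. Each sample pooled 6 to 8 cochleae, and neither the labels nor the methods say whether the pools came from separate litters or cultures. The p-values therefore weigh the group difference against the spread between these samples only. Strain and sex are not given in the sources used here.

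Chemokines are small secreted proteins that bind G protein-coupled receptors and direct the movement of cells. CXCL12 signals through CXCR4, which guides migrating progenitors, blood cells and endothelial cells, while ACKR3 binds the same ligand and removes it by taking it into the cell without classical G protein signaling. Other ligands of the group are best known for recruiting leukocytes: CXCL1 attracts neutrophils, CXCL10 is an interferon-induced ligand of CXCR3, and CCL2 and CCL7 attract monocytes. CX3CL1 and CXCL16 are made as membrane-bound proteins that proteases can shed, and CX3CL1 binds CX3CR1 on macrophages and microglia.

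Total counts per sample lay between 50471116 and 66068108, and a member had between 117 and 8437 counts in a sample. In every sample the 10 genes with the most counts took between 6.19% and 6.97% of the counts. HC marker genes were lower in the neomycin samples, with 8 of 10 called lower, among them the prestin gene Slc26a5 (means of 25.8 and 1.61 CPM in control and neomycin).

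All 10 members had enough counts to be tested. Levels are given as CPM, counts scaled to a common library size by the TMM method, and a gene was called when edgeR's quasi-likelihood test gave an adjusted p under 0.05, with Benjamini-Hochberg adjustment over the 15988 genes tested, together with a fold change over 1.5. Cxcl12 was the 1 member called higher after neomycin, and Cxcr4 and Cxcl14 were the 2 called lower. Over all genes tested, 2.24% were called higher, 6.6% lower and 8.84% in either direction. The other 7 members were not called. Without the fold change threshold the same 3 members passed, where 29% of all genes did. The groups did not overlap in 3 members, Cxcl12, Cxcr4 and Cxcl14, where 43.5% of all genes had groups that did not overlap. The median log2 fold change of the members, neomycin minus control, was -0.03, and that of all genes tested was -0.0041.

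**Figure D1:**
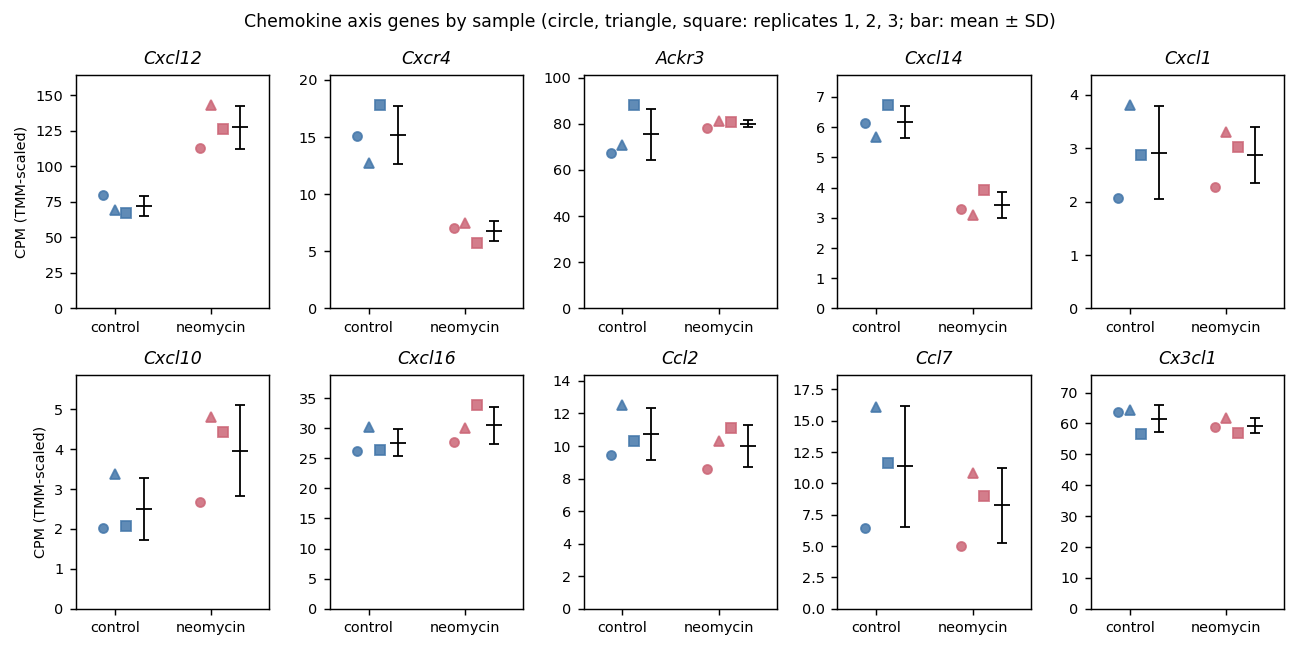
CPM (vertical axis, TMM-scaled, starting at 0) of each of the 10 genes in the 3 control samples (blue) and the 3 neomycin samples (red); circles, triangles and squares are replicates 1, 2 and 3, and the bars are the mean and SD. Every neomycin value of Cxcl12 lies above the control values, every neomycin value of Cxcr4 and Cxcl14 lies below them, and the groups overlap in the other 7 genes.

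Cxcl12, the ligand of both receptors, lies on chr6:117168535-117181367, plus strand, of the mm10 build, in the GENCODE annotation. Its level was 80.0, 69.4 and 66.8 CPM in control replicates 1, 2 and 3 and 113, 143 and 126 CPM in neomycin replicates 1, 2 and 3. The lowest neomycin sample was above the highest control sample. The group means were 72.1 ± 6.96 CPM in control and 127 ± 15.2 CPM after neomycin (SD, n = 3), a 1.77-fold rise. The log2 fold change was 0.82 (standard error 0.10, 95% interval 0.61 to 1.03, adjusted p = 0.000123, edgeR).

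Cxcr4, the signaling receptor, lies on chr1:128588199-128592293, minus strand. Its level was 15.1, 12.7 and 17.8 CPM in the control replicates and 7.04, 7.49 and 5.77 CPM in the neomycin replicates. All neomycin values were below all control values, and the means were 15.2 ± 2.53 and 6.77 ± 0.892 CPM (SD, n = 3), 2.24-fold lower after neomycin. The log2 fold change was -1.17 (standard error 0.15, 95% interval -1.48 to -0.85, adjusted p = 0.000179, edgeR). Of the 10 members it had the log2 fold change farthest from 0. Since RNA was measured in whole explants, fewer cells of a type and less RNA per cell cannot be told apart for this gene or for any other described here.

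Ackr3, the scavenging receptor, lies on chr1:90203980-90216751, plus strand. Its level was 67.2, 70.8 and 88.1 CPM in the control replicates and 78.2, 81.2 and 80.8 CPM in the neomycin replicates. The groups overlapped, with the highest value of all in control replicate 3. The means were 75.3 ± 11.2 and 80.1 ± 1.65 CPM (SD, n = 3), and the log2 fold change was 0.09 (standard error 0.09, 95% interval -0.12 to 0.29, adjusted p = 0.511, edgeR). Without control replicate 3 the log2 fold change was 0.23 with an adjusted p of 0.0274 (edgeR), still under the fold change threshold.

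The 3 genes of the axis were also set against each other within each sample, as log2 ratios of CPM. The ratio of Cxcl12 to Cxcr4 was 2.41, 2.45 and 1.91 in the control replicates and 3.99, 4.25 and 4.45 in the neomycin replicates, means of 2.25 ± 0.30 and 4.23 ± 0.23 (SD, n = 3). That is a difference of 1.98 on the log2 scale with no overlap, and it lay between 1.8 and 2.09 when each sample was left out in turn. Against the scavenging receptor, the log2 ratio of Cxcl12 to Ackr3 was 0.25, -0.03 and -0.40 in control and 0.53, 0.82 and 0.65 after neomycin. Here too the neomycin values were all above the control values, by 0.72 between the means. The log2 ratio of the receptors, Cxcr4 to Ackr3, was -2.15, -2.47 and -2.31 in control and -3.47, -3.43 and -3.80 after neomycin, below control in every sample, with means that differed by -1.25. The ratios share genes with each other and with the fold changes above, and no test was made of them, since an exact permutation test of 3 samples against 3 cannot go below p = 0.1.

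**Figure D2:**
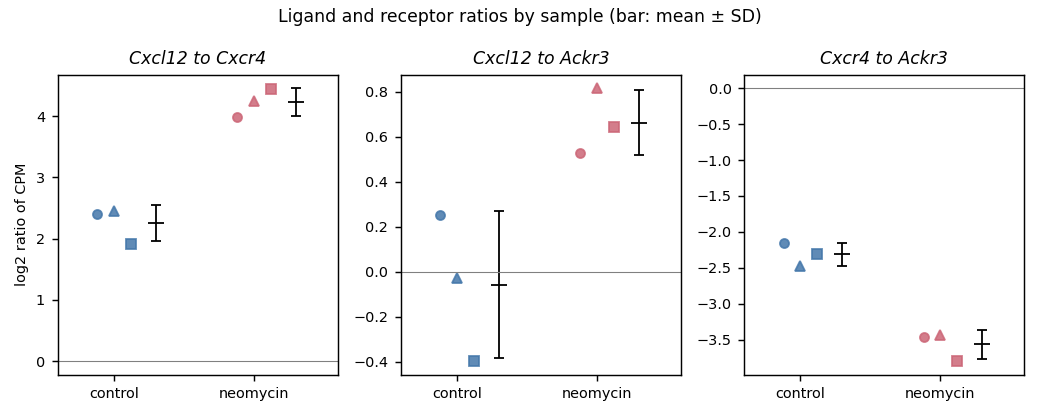
Log2 ratio of the CPM of the genes named above each panel (vertical axis, a separate scale in each panel) in the 3 control (blue) and 3 neomycin (red) samples; circles, triangles and squares are replicates 1, 2 and 3, and the bars are the mean and SD. The neomycin values of both ratios with Cxcl12 lie above the control values, and those of Cxcr4 to Ackr3 lie below them.

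Levels were also divided by the length of all annotated exons of a gene, 8176 bases over 4 transcripts for Cxcl12 and 1808 bases over 2 for Cxcr4. Which transcripts were present was not measured, so levels of different genes on this scale depend on that length. Per kb of exon the ratio of Cxcl12 to Cxcr4 was 1.17, 1.21 and 0.832 in the control replicates and 3.54, 4.22 and 4.84 in the neomycin replicates. With these lengths, ligand and signaling receptor were at similar CPM per kb in control and several-fold apart after neomycin. Relative to Ackr3 per kb, Cxcr4 stood at 0.416, 0.333 and 0.374 in control and at 0.167, 0.171 and 0.132 after neomycin. The scavenging receptor was thus the more abundant of the receptors on this scale in every sample.

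Cxcl14, a chemokine made by many epithelia, lies on chr13:56288643-56296551, minus strand. Its level was 6.14, 5.66 and 6.73 CPM in the control replicates and 3.30, 3.08 and 3.91 CPM in the neomycin replicates. The groups did not overlap. The means were 6.17 ± 0.536 and 3.43 ± 0.429 CPM (SD, n = 3), 1.8-fold lower after neomycin, and the log2 fold change was -0.85 (standard error 0.16, 95% interval -1.20 to -0.50, adjusted p = 0.0027, edgeR). Cxcl12, Cxcr4 and Cxcl14 were each called in all 14 alternative fits, which changed the test, the scaling, the filter, the length correction, the block or the samples kept.

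**Figure D3:**
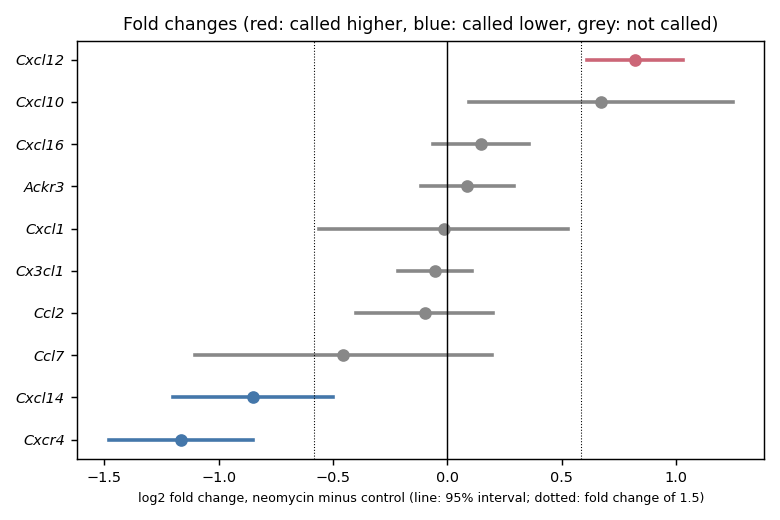
Log2 fold change, neomycin minus control (horizontal axis), of the 10 genes with its 95% interval (lines); dotted lines mark a fold change of 1.5. Cxcl12 (red) was called higher, Cxcr4 and Cxcl14 (blue) were called lower, and of the 7 genes not called (grey) only Cxcl10 has an interval that leaves out 0.

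The promoters of the 3 called members, and of Cxcl10, whose promoter held matches to both an NF-kB and an interferon motif, are printed below to show where the matches lie. Each is the 250 bases before the RefSeq start of the gene in GRCm38.p6, 5′ to 3′ on the strand of the gene. Capitals mark every match, on either strand, to the motifs searched. NF-kB and ISRE (the interferon-stimulated response element) are motifs of 10 bases, spelled out by the capitals of Cxcl10, where ISRE comes first and NF-kB second, with any base allowed at the fifth and the sixth position of each. The HRE core, bound by hypoxia-inducible factors, was searched as ACGTG. The GC box, bound by SP1 and related factors, was searched as GGGCGG. The TATA box, which places the start of transcription in some genes, was searched as TATAAA. Cxcl12 is from chr6:117168285-117168534 (plus strand), Cxcr4 from chr1:128592300-128592549 (minus), Cxcl14 from chr13:56296552-56296801 (minus) and Cxcl10 from chr5:92348890-92349139 (minus).
Cxcl12: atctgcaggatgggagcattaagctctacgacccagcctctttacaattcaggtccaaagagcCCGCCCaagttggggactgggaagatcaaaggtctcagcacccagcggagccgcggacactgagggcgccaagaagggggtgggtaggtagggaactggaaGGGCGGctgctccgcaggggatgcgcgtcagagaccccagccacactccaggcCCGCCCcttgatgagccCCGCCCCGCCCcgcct
Cxcr4: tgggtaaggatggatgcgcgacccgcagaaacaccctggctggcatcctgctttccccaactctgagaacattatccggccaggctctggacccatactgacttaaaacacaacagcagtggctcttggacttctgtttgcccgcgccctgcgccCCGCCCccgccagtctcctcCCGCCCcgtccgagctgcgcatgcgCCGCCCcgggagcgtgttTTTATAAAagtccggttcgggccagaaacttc
Cxcl14: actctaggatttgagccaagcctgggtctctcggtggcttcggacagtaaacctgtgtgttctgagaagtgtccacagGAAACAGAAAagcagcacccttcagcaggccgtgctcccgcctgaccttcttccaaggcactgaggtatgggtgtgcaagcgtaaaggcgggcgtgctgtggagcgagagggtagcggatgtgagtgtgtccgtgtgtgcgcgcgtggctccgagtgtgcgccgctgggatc
Cxcl10: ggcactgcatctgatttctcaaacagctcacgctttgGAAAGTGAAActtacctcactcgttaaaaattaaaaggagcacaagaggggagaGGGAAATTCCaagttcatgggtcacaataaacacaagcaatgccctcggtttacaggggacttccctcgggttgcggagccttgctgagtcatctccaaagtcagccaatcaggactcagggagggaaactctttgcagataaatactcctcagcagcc

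The Cxcl12 window held 5 GC box matches, the farthest beginning 187 bases and the nearest 11 bases before the start, with the last 2 next to each other and overlapping by a base, and no match to the other motifs. The Cxcr4 window held 3 GC boxes between 95 and 50 bases before the start and a TATA box on each strand, 32 and 30 bases before the start, which overlap. In Cxcl14 the capitals are a single ISRE match 172 bases before the start. In Cxcl10 they are an ISRE match at 213 bases and an NF-kB match at 159 bases.

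RefSeq held a promoter for 7 of the 10 members, and Ccl2, Ccl7 and Cxcl16 had no entry in the table used. An NF-kB match was in 2 of the 7, Cxcl1 and Cxcl10, where 1.21% of all 32536 promoters held one. The NF-kB matches of Cxcl1 on the plus and minus strands overlap, 71 and 70 bases before the start. An ISRE match was in 2 of the 7, Cxcl10 and Cxcl14, against 2.98% of all promoters. GC boxes were in 4 of the 7, Cxcl12, Cxcr4, Ackr3 and Cx3cl1, against 32.97%. Matches to the TATA box letters were in 3, Cxcr4, Ackr3 and Cx3cl1, against 12.31%. Those of Ackr3 and Cx3cl1 begin only 8 and 6 bases before the start, closer than the 32 and 30 bases of Cxcr4. The HRE core was in 1, Cxcl1, against 16.65%. The GC content of the Cxcl12, Cxcr4 and Cxcl14 windows was 64.4%, 61.2% and 59.6%, that of Cxcl10 was 48.0%, and the median of all promoters was 52.4%. These matches are descriptions of the letters and say nothing of which factor was bound.

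Cxcl10, on chr5:92346638-92348889, minus strand, was at 2.03, 3.39 and 2.08 CPM in the control replicates and at 2.67, 4.80 and 4.43 CPM in the neomycin replicates. Control replicate 2 lay above neomycin replicate 1, so the groups overlapped. The means were 2.50 ± 0.773 and 3.97 ± 1.13 CPM (SD, n = 3), and neomycin minus control was 0.67 on the log2 scale (standard error 0.27, 95% interval 0.09 to 1.25, unadjusted p = 0.0262, adjusted p = 0.0765, edgeR). It was not called, but DESeq2 called it (0.68, adjusted p = 0.0409). With a sample fewer, edgeR also called it, at 0.95 (adjusted p = 0.0415) when control replicate 2 was left out. It was also called when neomycin replicate 1 was left out, at 0.89 (adjusted p = 0.019). Leaving out any of the remaining samples gave smaller values and no call. These were 0.55 and 0.57 for control replicates 1 and 3 (adjusted p = 0.187 and 0.159, edgeR). For neomycin replicates 2 and 3 they were 0.51 and 0.59 (adjusted p = 0.266 and 0.189, edgeR). The length correction gave 0.51 and no call (adjusted p = 0.174, edgeR). Of the 14 alternative fits, 4 called Cxcl10. Art3 overlaps its exons on the opposite strand, so that without strand the reads of the genes cannot be told apart, and Art3 itself was not called (-0.44 on the log2 scale, adjusted p = 0.291, edgeR) at 2.54 ± 0.679 and 1.88 ± 0.656 CPM (SD, n = 3).

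Cxcl1, the neutrophil attractant, lies on chr5:90891241-90893115, plus strand. It was at 2.06, 3.81 and 2.88 CPM in the control replicates and 2.28, 3.30 and 3.03 CPM in the neomycin replicates. The neomycin values lay within the range of the control values. The log2 fold change was -0.02 (standard error 0.25, 95% interval -0.56 to 0.53, adjusted p = 0.97, edgeR), an interval that spans 0 widely on both sides.

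Cxcl16, the ligand of CXCR6, lies on chr11:70453983-70459984, minus strand. Its level was 26.2, 30.2 and 26.4 CPM in the control replicates and 27.7, 30.0 and 33.8 CPM in the neomycin replicates. The groups overlapped, and the log2 fold change was 0.15 (standard error 0.10, 95% interval -0.06 to 0.36, adjusted p = 0.275, edgeR). Zmynd15 overlaps its exons on the opposite strand, with 45 to 91 counts in a sample beside the 1473 to 1818 of Cxcl16.

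Cx3cl1, the membrane-bound ligand of CX3CR1, lies on chr8:94772009-94782427, plus strand. Its level was 63.6, 64.4 and 56.5 CPM in the control replicates and 58.9, 61.9 and 57.0 CPM in the neomycin replicates. The samples spread little and the groups overlapped. The log2 fold change was -0.05 with the narrowest interval of the members, -0.22 to 0.11 (standard error 0.07, adjusted p = 0.626, edgeR).

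Ccl2 and Ccl7, the monocyte attractants, are neighbors on chromosome 11, at chr11:82035571-82037453 and chr11:82045712-82047525, both on the plus strand. Ccl2 was at 9.42, 12.5 and 10.3 CPM in the control replicates and 8.59, 10.3 and 11.1 CPM in the neomycin replicates. Ccl7 was at 6.43, 16.1 and 11.6 CPM in control and 4.97, 10.8 and 8.97 CPM after neomycin. Replicate 1 was the lowest sample of its group for both genes, replicate 2 was the highest of its group for Ccl7 in both groups and for Ccl2 in control, and the groups overlapped for both genes. The log2 fold change was -0.10 for Ccl2 (standard error 0.14, 95% interval -0.40 to 0.20, adjusted p = 0.626, edgeR). For Ccl7 it was -0.46 (standard error 0.30, 95% interval -1.10 to 0.19, adjusted p = 0.274, edgeR), the widest interval of the members. Ccl7 was called lower without control replicate 1 (-0.74, adjusted p = 0.0408, edgeR) and with the correction for gene length (-0.82, adjusted p = 0.04, edgeR). Its log2 fold change was -0.12 without control replicate 2 and -0.19 without neomycin replicate 1. The log2 ratio of Ccl2 to Ccl7 was 0.55, -0.37 and -0.17 in control and 0.78, -0.06 and 0.31 after neomycin, which overlapped. Of the next genes on the same strand, Ccl11, Ccl12 and Ccl8, none was called, with log2 fold changes of -0.26, 0.21 and -0.70.

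In order of level per kb of all annotated exons, an order that depends on those lengths, Ackr3 was the highest member in both groups. It was at 22.5 CPM per kb in control (20.1 to 26.3) and 23.9 after neomycin (23.3 to 24.2). Control samples placed Cx3cl1 next at 15.7 CPM per kb (14.4 to 16.4), and its range did not reach that of Ackr3. Ccl7 at 14.2 CPM per kb, Ccl2 at 9.43, Cxcl16 at 9.13, Cxcl12 at 8.81 and Cxcr4 at 8.40 followed in control, each with a range that overlapped that of its neighbors, as the ranges of Ccl7 and Cx3cl1 did. Below these and apart from them came Cxcl14 at 3.38 CPM per kb, then Cxcl1 at 1.56 and Cxcl10 at 1.11, whose ranges overlapped. After neomycin Cxcl12 moved from the sixth place to the second, at 15.6 CPM per kb (13.8 to 17.5), and its range overlapped that of Cx3cl1 at 15.1 (14.5 to 15.8). Cxcr4 at 3.74 CPM per kb (3.19 to 4.14) kept the seventh place but no longer overlapped Ccl2, the member above it, at 8.79 (7.54 to 9.75).

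The wider chemokine family was read from lists of ligands and receptors that include the members. Beside the counts of these and the later lists stand the shares over all genes tested, 2.24% called higher and 6.6% called lower. Among CXC ligands, 9 of 15 were tested, 2 were called higher, Cxcl12 and Pf4, and 1 lower, Cxcl14. Pf4, the platelet chemokine CXCL4 that macrophages also make, was at 2.77, 3.74 and 3.49 CPM in control and 4.74, 5.76 and 5.98 CPM after neomycin, a log2 change of 0.73 (adjusted p = 0.01, edgeR). Every neomycin value of Pf4 was above the control values. The summed level of the CXC ligands was 109 to 121 CPM in control and 155 to 191 CPM after neomycin, most of it Cxcl12.

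Of the CC, XC and CX3C ligands, 17 of 26 were tested, 3 were called higher and 0 lower. Those called were Ccl3, Ccl4 and Ccl5, which lie in another stretch of chromosome 11 than Ccl2 and Ccl7. Ccl9 and Ccl6 lie between Ccl5 and Ccl3 in that stretch and were not called. Their log2 fold changes were 0.24 and -0.005 (adjusted p = 0.136 and 0.988, edgeR). Ccl3 was at 1.71, 2.03 and 1.87 CPM in control and 3.18, 3.49 and 3.56 CPM after neomycin (log2 fold change 0.87, adjusted p = 0.00767, edgeR). Ccl4 was at 0.609, 0.575 and 1.23 CPM in control and 1.79, 2.00 and 1.73 CPM after neomycin (1.2, adjusted p = 0.0203, edgeR). Neither gene had groups that overlapped. Ccl5 was at 1.91, 2.01 and 2.31 CPM in control and 2.56, 3.12 and 5.29 CPM after neomycin (0.81, adjusted p = 0.0375, edgeR). Neomycin replicate 3 was its highest sample, and with that sample left out the value was 0.45 (adjusted p = 0.22, edgeR). Pf4, Ccl3, Ccl4 and Ccl5 were not called with the correction for gene length, which gave log2 fold changes of 0.34, 0.49, 0.83 and 0.46 (adjusted p = 0.139, 0.0879, 0.0752 and 0.186, edgeR). Ccl4 was also not called without control replicate 1 (1.03, adjusted p = 0.065), control replicate 2 (1.02, adjusted p = 0.0848) or neomycin replicate 2 (1.13, adjusted p = 0.076, all edgeR), and Ccl5 without control replicate 1 (0.76, adjusted p = 0.0856), control replicate 2 (0.80, adjusted p = 0.108) or neomycin replicate 2 (0.92, adjusted p = 0.0602, all edgeR), nor by limma-voom (0.75, adjusted p = 0.0582).

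Of the chemokine receptors, 8 of 18 were tested and Cxcr4 was the 1 called. The median log2 fold change of the tested receptors was 0.36, but 0 passed the adjusted p as higher. That median includes genes of low count, Cxcr5, Ccr3, Ccr10 and Xcr1, at 3 to 46 counts in a sample. The summed level of the receptor list was 19.4 to 24.0 CPM in control and 13.6 to 17.4 CPM after neomycin, with Cxcr4 the largest part. Cx3cr1, the receptor of CX3CL1, was at 2.32 ± 0.621 and 2.89 ± 0.576 CPM (SD, n = 3), and Cxcr3, the receptor of CXCL10, had no count in any sample. All 5 atypical receptors were tested and 1 was called, Ccrl2, which binds the attractant chemerin, at 3.09, 4.29 and 5.18 CPM in control and 1.26, 2.83 and 2.61 CPM after neomycin. Its log2 fold change was -0.90 (adjusted p = 0.035, edgeR), and it was not called without control replicate 2 (-0.88, adjusted p = 0.102), control replicate 3 (-0.71, adjusted p = 0.109) or neomycin replicate 1 (-0.62, adjusted p = 0.0756, all edgeR).

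**Figure D4:**
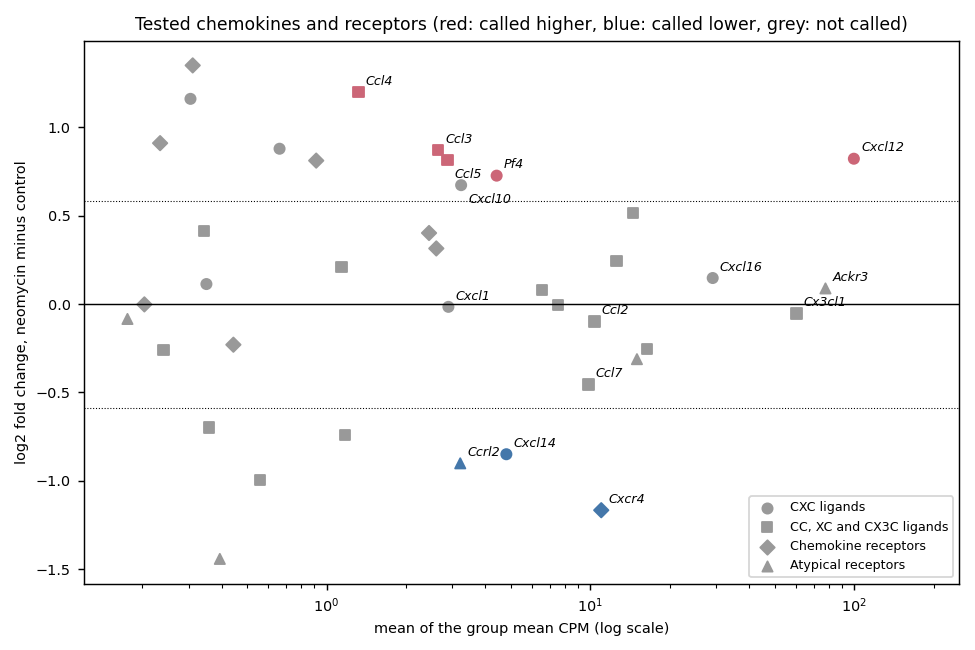
Log2 fold change, neomycin minus control (vertical axis), against the mean of the group means in CPM (horizontal axis, log scale) for every tested chemokine, chemokine receptor and atypical receptor; shapes give the list, dotted lines a fold change of 1.5. Cxcl12 (red) has the highest mean CPM of the genes, a scale not corrected for length, and was called higher, with Pf4, Ccl3, Ccl4 and Ccl5 at lower levels, while Cxcr4, Cxcl14 and Ccrl2 (blue) were called lower.

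Among 19 other genes of the CXCR4 axis (further ligands, proteases, G proteins, arrestins and kinases), all tested, 0 were called by edgeR. Without the fold change threshold 2 passed as higher and 2 as lower, at an adjusted p under 0.05, where 29% of all genes tested passed in either direction. These genes, named after their values were seen, were Hmgb1, a nuclear protein that forms a complex with CXCL12, and the arrestin Arrb2 as higher, and the arrestin Arrb1 (log2 fold change -0.46, adjusted p = 0.00322, edgeR) and Itch, the ligase that marks CXCR4 for breakdown, as lower. Sdc4, a heparan sulfate proteoglycan named for the highest mean CPM over the 6 samples, which is not corrected for length, was at 465 ± 25.2 and 488 ± 19.7 CPM (SD, n = 3).

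The NF-kB pathway, which acts on Ccl2, Cxcl1 and other inflammatory genes, was read from 13 genes, all tested. Of these 0 were called higher and 1 lower, Rel, at 1.10 ± 0.192 and 0.542 ± 0.128 CPM (SD, n = 3), and its log2 change was -1.02 (adjusted p = 0.0472, edgeR). Rel was not called when any of the 6 samples was left out (adjusted p = 0.0653 to 0.177, edgeR), nor with the length correction, upper quartile scaling or no low count filter (adjusted p = 0.088, 0.0515 and 0.0501, edgeR). The summed level of the list was 440 to 463 CPM in control and 397 to 423 CPM after neomycin. Among 15 interferon-stimulated genes, all tested, 4 were called higher and 0 lower: Isg15, Ifit3, Usp18 and Gbp2. Usp18, which restrains interferon signaling, was at 2.52, 2.72 and 1.49 CPM in control and 3.92, 5.69 and 4.73 CPM after neomycin (log2 fold change 1.09, adjusted p = 0.00602, edgeR). The log2 fold changes of Isg15, Ifit3 and Gbp2 were 0.60, 0.77 and 0.70 (adjusted p = 0.0252, 0.0146 and 0.0259, edgeR), and none of these 3 was called with the length correction (0.21, 0.54 and 0.58, adjusted p = 0.434, 0.0777 and 0.0561, edgeR) or without neomycin replicate 2 (0.52, 0.57 and 0.61, adjusted p = 0.111, 0.0895 and 0.11, edgeR). Isg15 was also not called without control replicate 3 (0.49, adjusted p = 0.0615) or neomycin replicate 3 (0.51, adjusted p = 0.0926), and Gbp2 without control replicate 1 (0.58, adjusted p = 0.0803) or neomycin replicate 3 (0.66, adjusted p = 0.0774, all edgeR). The median over the list was 0.20, and its summed level overlapped between the groups, 279 to 308 and 270 to 342 CPM.

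Markers of the cell types an explant can hold moved beside these genes, and their part in the results was not tested. Of 11 macrophage markers 5 were called higher and 0 lower, Cd68, Mrc1, C1qa, C1qc and Fcgr1. The summed level of all 11 was 194 to 256 CPM in control and 275 to 329 CPM after neomycin, without overlap. Lyz2, which was not called, held 105 to 138 CPM of this sum in control and 148 to 176 CPM after neomycin. None of the 5 called markers kept its call without control replicate 1, where their log2 fold changes were 0.47 to 0.65. With the length correction only Mrc1 of the 5 was called. Csf1r, the receptor that macrophages need, was at 6.68 ± 0.473 and 6.45 ± 0.227 CPM (SD, n = 3), and Adgre1 at 9.07 ± 1.22 and 9.95 ± 1.79 CPM. Of 10 endothelial markers 7 were called lower, among them Pecam1 at 9.78 ± 2.79 and 1.49 ± 0.47 CPM and Cdh5 at 8.81 ± 0.807 and 2.12 ± 0.213 CPM (SD, n = 3). The summed level of the endothelial markers overlapped, 294 to 333 and 277 to 328 CPM, since Emcn held most of it at 252 ± 12.1 and 273 ± 26.2 CPM. These endothelial calls stood in every alternative fit run.

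HC markers summed to 455 to 488 CPM in control and 210 to 259 CPM after neomycin. With the length correction the HC marker Espn (-0.56) and the supporting cell (SC) marker Fgfr3 (-0.55) were under the fold change threshold and not called. Of 11 mesenchymal markers 1 was called higher, Dcn, and 2 lower, Col1a1 and Prrx1, with Prrx1 near the fold change threshold at -0.59 and under it in 9 alternative fits, and with summed levels of 6067 to 6616 and 6445 to 6665 CPM. Dcn was not called without control replicate 2 (0.56). SC markers had 2 of 10 called lower, Prox1 and Fgfr3, and summed to 1324 to 1384 and 1329 to 1479 CPM. Neuronal markers had 4 of 7 called lower, Nefl, Nefm, Nefh and Snap25, with sums over the list of 149 to 230 and 129 to 158 CPM. Nefh was not called by DESeq2 or without control replicate 1 or neomycin replicate 3 (adjusted p = 0.0678, 0.0852 and 0.063). Syt1 went the other way, at 55.5 ± 8.35 and 71.9 ± 11.4 CPM (SD, n = 3). It passed the adjusted p but not the fold change threshold (0.37, adjusted p = 0.0346, edgeR). Tubb3 and Gap43 were not called (-0.29 and -0.02). Schwann cell markers had 1 of 7 called higher, S100b, with sums of 573 to 636 and 615 to 640 CPM. Lymphocyte markers were near the floor, at a sum of at most 0.805 CPM in any sample, with Ms4a1 at 0 throughout.

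**Figure D5:**
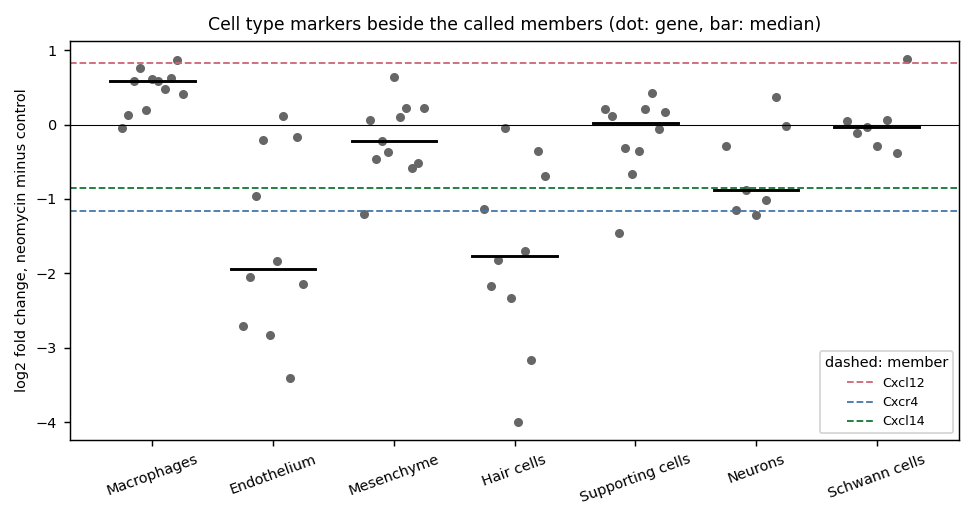
Log2 fold change, neomycin minus control (vertical axis), of each tested marker gene (dots) in 7 cell type lists, with the median of each list (black bars); dashed lines are Cxcl12, Cxcr4 and Cxcl14. The macrophage median lies above 0, and the endothelial, HC, neuronal and mesenchymal medians lie below it, the last at -0.22. The SC and Schwann cell medians are near 0, at 0.03 and -0.03.

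The tested genes whose 6 values ran most like those of Cxcl12, by the root mean square distance of log2 CPM from the control mean, were Gsdmd (0.06), Adam5 (0.08) and B230118H07Rik (0.09). Gsdmd, the pore-forming protein of pyroptosis, was at 5.93 CPM in control and 9.94 CPM after neomycin as group means. For Cxcr4 they were Pcp4 (0.08), a small calmodulin-binding protein at 96.7 and 40.6 CPM, Cpne9 (0.08) and Srd5a1 (0.10), all lower after neomycin. Ackr3 was closest to Dctn3 (0.02), Pde6d (0.03) and Prr15l (0.04), whose log2 fold changes were 0.10, 0.07 and 0.09. These distances were chosen for likeness over 6 samples and carry no test.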

How the data were processed

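RNA was sequenced from 3 control and 3 neomycin samples of cochlear explants. Bases were called with CASAVA 1.8, reads trimmed with Trimmomatic 0.23, aligned to mm10 with HISAT2 and counted with HTSeq, and the authors deposited raw counts per gene symbol, without normalization. The strand setting of the counting and the handling of reads with several matches are not given in the sources used here, so overlapping genes and near-identical copies (Ccl21a, Ccl21b, Ccl21c, Ccl27a, Ccl27b) are uncertain. Every row named a gene and every column could be assigned to a sample. Library totals were 50471116 to 66068108. Intervals are 95% confidence intervals of the log2 fold change between the groups, based on the spread between these samples.

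Genes were filtered with filterByExpr and libraries scaled by TMM in edgeR 4.0.16 (R 4.3.3), and neomycin was tested against control with the quasi-likelihood test, Benjamini-Hochberg adjusted over 15988 genes. Standard errors came from the size of the log2 change and its F statistic. Ratios and likeness used log2 CPM with a prior count of 2. Coordinates and exon lengths are from GENCODE M21, which held 23376 symbols directly and 651 through an older symbol. Alternatives were DESeq2 1.42.0, limma-voom (limma 3.58.1), other scalings, filters and thresholds, a gene length correction (lowess, span 0.3, 99.2% of tested genes with a length), the replicate number as a block, and each sample left out in turn. The code was tested on simulated data.

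The members, lists and marker genes were chosen with earlier results of these data known. The genes named are the 10 members, the called genes of the lists (or, in a list with none, the gene with the highest mean CPM) and the 3 genes most like Cxcl12, Cxcr4 and Ackr3. Beside them, neighbors, overlapping genes, receptors of the members, and markers that were not called were named after their values were seen. Figures were drawn with matplotlib 3.10.9.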

Additional observations from a re-analysis of the deposited data

How the results depend on the processing

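The calls of Cxcl12, Cxcr4 and Cxcl14 kept their direction and their side of both thresholds in all 14 alternative fits. With a fold change over 2 in place of 1.5, 0 members were called higher and 1 lower, Cxcr4, and over all genes 121 were called higher and 565 lower. With an adjusted p under 0.01, 217 genes were called higher. DESeq2 called 2 members higher, the other being Cxcl10. With the gene length correction 5 members passed the adjusted p, the others being Ccl2 (log2 fold change -0.42, adjusted p = 0.0306, edgeR) and Ccl7, 232 of all genes were called higher, and 8 genes of the family lists were called in place of 13. Leaving out each sample gave 1 to 2 members called higher, 2 to 3 called lower, 3 to 4 past the adjusted p, 237 to 513 genes called higher, 800 to 1159 lower and 7 to 12 of the family lists, with 237 genes without control replicate 2 and 7 of the family lists without neomycin replicate 2. The cause was not tested.

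Neither the labels nor the methods say whether the replicate numbers pair the samples. Deviations from the group means correlated at 0.165, 0.0264 and 0.0949 between samples numbered 1, 2 and 3. Between samples of unlike number the correlations ran from -0.129 to 0.0325, the highest for neomycin replicate 3 and control replicate 2. With 3 samples in a group these values cannot settle whether the samples were paired. With the replicate block 2 members were called higher, the other being Cxcl10 (0.66, adjusted p = 0.0262, edgeR), and 5 passed the adjusted p, with Ccl7 (-0.44, adjusted p = 0.00969, edgeR) also among them. The direction of Cxcl1 turned from -0.02 to 0.0499 with limma-voom, 0.0006 with the replicate block and 0.0053 with upper quartile scaling, and ran from -0.21 to 0.23 over the samples left out, and that of Ccl2 ran from -0.18 to 0.0249, the latter without control replicate 2. No scaling moved the median of all genes past 0.0172 on the log2 scale. Cxcl10, at 117 to 283 counts in a sample, and Cxcl1, at 121 to 199, had the fewest counts of the members.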

Other observations

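Chemokine ligands with no count in any of the 6 samples were Cxcl11 and Cxcl15 in the CXC list, and Ccl1, Ccl21a, Ccl21b, Ccl21c and Ccl27b in the CC, XC and CX3C list. Among the receptors, Cxcr3 and Ccr8 had none. The Ccl21 and Ccl27 copies are near-identical in sequence, and reads that match several copies may have been left out of the counts, which was not tested. Ccl27a, a skin chemokine, passed the adjusted p with a fold change under 1.5, at 11.9 ± 1.33 CPM in control and 17.0 ± 1.31 CPM after neomycin (SD, n = 3), and 0.52 higher on the log2 scale (adjusted p = 0.00538, edgeR), with no overlap between the groups.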
